A study of Populus ussuriensis with 12 samples.

Results

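In poplar root tips, 79 genes rose at least 2-fold under osmotic stress in both the wild type and plants overexpressing PuC3H35, starting from levels that the transgene had moved little. They were chosen from the 34699 gene identifiers of the deposited table by their group means. The rule asked for a highest group mean of at least 5 FPKM and for reads of the gene in the wild type without stress. On log2(FPKM + 1), the rise had to be at least 1 in each genotype and the difference between unstressed genotypes under 0.3. FPKM is a read count scaled to gene length and library depth. The rule used all 12 libraries, so the rises and the unstressed difference are described here without a test.

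Total RNA came from the last 0.5 cm of roots grown in vitro. The species, Populus ussuriensis, is a poplar native to northeast Asia. Plants aged 1 week were kept for 7 days on half-strength Murashige and Skoog medium with 6% PEG6000 (PEG groups) or without it (control groups). The 4 groups, with 3 libraries each, were WT control and WT PEG, from wild-type plants, and OE control and OE PEG, from plants overexpressing PuC3H35, a CCCH zinc finger protein. The 6 OE libraries are labelled with a running gene number, PuC3H35 up to PuC3H40, but were treated as 1 genotype because their titles share the name OE. The transgene's promoter and the number of lines used are not given in these sources. Since the labels do not state whether replicates were separate plants, the p-values describe spread among these libraries, which could be technical.

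PEG6000 is too large to enter the cell wall readily and draws water out of tissue, so it imposes a water deficit without salt. Plant roots respond to such a deficit through abscisic acid and through pathways that do not need it, and both raise transcripts for protective proteins, compatible solutes, transporters and cell wall enzymes. CCCH zinc finger proteins bind RNA or DNA, and several act in stress responses. The table pairs no identifier with a name or function, so the genes are described by identifier only, and no pathway list, cell type marker or sequence was examined. In this naming scheme the digits after "Potri." number a chromosome of Populus trichocarpa, and the digits after "G" follow gene order along it.

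The depth of each library, recovered from the steps between FPKM values, was 27124958 to 37106342 reads. FPKM sums were 610202 to 665551 and were highest in the 3 OE PEG libraries. All 79 genes passed the filter for testing, a mean of at least 1 FPKM over the 12 libraries, which 22640 genes passed. Under PEG, the least covered of the 79 still had 98 reads over the 3 WT libraries and 81 over the 3 OE libraries. Without PEG the lowest sums were 4 and 2 reads, and 14 genes in WT and 8 in OE had under 30 reads. There were 14 values of 0 in 8 genes, all in control libraries.

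The 79 genes together made up little of the transcriptome at rest and several times more under PEG. Their summed level was 673.4, 659.1 and 661.8 FPKM in the WT control libraries and 680.2, 678.0 and 701.3 in the OE control libraries. In the WT PEG libraries it was 2932.4, 2968.2 and 2945.3 FPKM, and in the OE PEG libraries it was 2420.2, 2398.9 and 2423.2. The control groups lay close together, though all OE control libraries stood above all WT control libraries. Under PEG the order was reversed and the gap wider, with all WT libraries above all OE libraries. As a share of all FPKM the sum went from 0.107% to 0.483% in WT and from 0.112% to 0.364% in OE (means of 3 libraries). The 3 most abundant genes held 36.4% of the sum in WT PEG and 32.2% in OE PEG. Without them the sums were 1877 ± 7.0 FPKM in WT PEG and 1637 ± 9.5 in OE PEG (SD, n = 3). In WT control and OE control they were then 417 ± 4.7 and 459 ± 2.4 FPKM. The median level over the 79 was 15.2 ± 1.15 FPKM in WT PEG and 12.8 ± 0.363 in OE PEG. In bulk RNA, more cells of a type and more RNA per cell cannot be told apart.

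**Figure D1:**
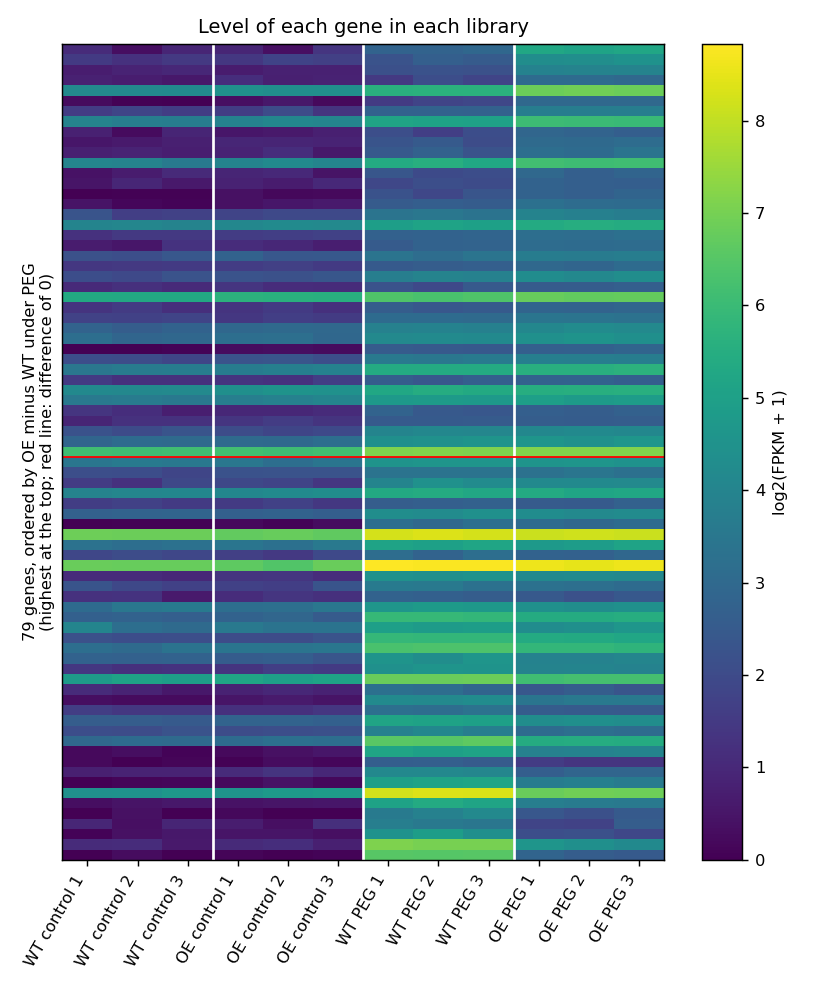
Level of each of the 79 genes (rows) in each of the 12 libraries (columns), as log2(FPKM + 1). Within every row, the PEG libraries of a genotype are brighter than its control libraries. Rows above the red line are higher in OE than in WT under PEG, and the bottom rows show the genes far brighter in WT PEG than in OE PEG.

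At rest these were mostly weakly expressed genes. Median levels were 2.06 FPKM in WT control and 2.12 in OE control, against 8.60 and 9.03 over all tested genes. Under PEG the medians reached 14.3 FPKM in WT and 12.8 in OE, against 8.98 and 9.26 over all tested genes. Of the 79, 26 had a WT control mean under 1 FPKM, 27 from 1 to under 5, and 26 at 5 or more. All PEG libraries lay above all control libraries for each of the 79 genes in WT and in OE. Limma called all 79 raised at least 2-fold, as it did 7.1% of tested genes in WT and 7.46% in OE, but these contrasts chose the genes.

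The rise spanned a wide range in WT and a narrower one in OE. On log2(FPKM + 1) it ran from 1.02 to 6.41 in WT, with a median of 1.60, and from 1.01 to 4.28 in OE, with a median of 1.79. Rises of at least 3 were found for 17 genes in WT and 7 in OE, 5 of them shared, while 38 genes rose by less than 2 in both. As plain FPKM ratios, the median rise was 4.14-fold in WT and 4.74-fold in OE, with upper quartiles of 13.4-fold and 8.92-fold. The 26 genes under 1 FPKM at rest had the largest ratios, with medians of 28.9-fold in WT and 19.2-fold in OE. The 26 genes at 5 FPKM or more had medians of 2.85-fold and 2.88-fold. Genes that rose more in WT tended to rise more in OE, with Pearson's r = 0.613 and Spearman's rho = 0.602 across the 79. Without the 2 largest WT rises r was 0.599. No library is shared between these measures, but the rule sets a floor on both. It also holds the unstressed genotypes within 0.3, so both rises are taken from nearly the same level. The part of the selection in these correlations was not tested, and genes are not independent replicates.

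**Figure D2:**
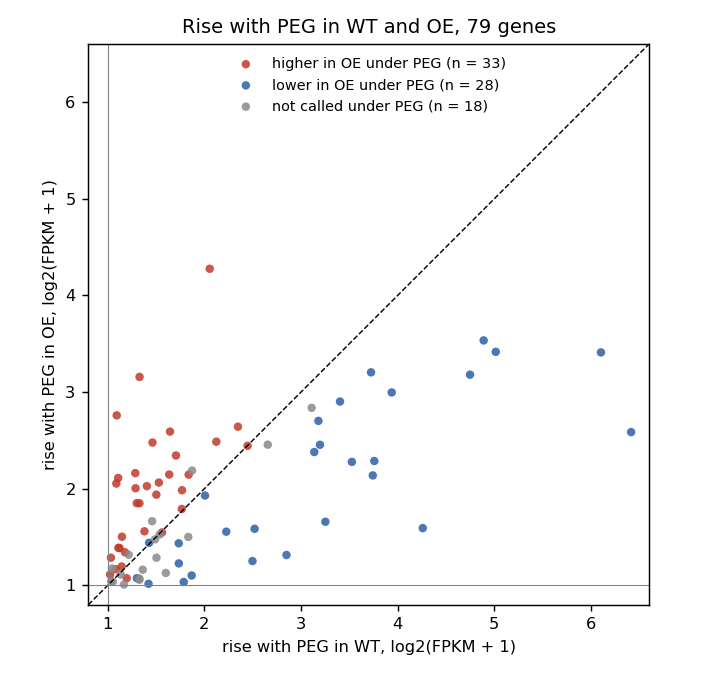
Rise with PEG in WT (horizontal axis) and OE (vertical axis), each on log2(FPKM + 1), with 1 point per gene. The dashed line marks equal rises and the grey lines the floor of 1 set by the rule. The 17 genes with a WT rise of at least 3 lie below the dashed line, while 1 gene reaches 4.28 in OE.

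The name "equal baselines" holds on the log2(FPKM + 1) scale by construction. There the OE minus WT difference without PEG ran from -0.26 to 0.30, with a median of 0.12, and 57 genes were higher in OE and 22 lower. The 3 OE control libraries and the 3 WT control libraries overlapped for 52 genes and did not for 27. Limma called 28 of the 79 different at an adjusted p under 0.05, where 55% of all 22640 tested genes were called. That contrast chose the genes, so nothing is read from the count. For the weakest genes the scale hides ratios: in 7 genes the OE control mean was over 2 times the WT control mean, with WT means of at most 0.223 FPKM, and in 1 it was under 0.5 times.

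The 79 are a small part of the genes raised by PEG in both genotypes. Without the baseline limit 719 genes met the rule, of which the 79 are 11%. OE control was higher by 0.3 or more in 627 genes and lower by as much in 13. From baselines within 0.3, 180 genes rose in WT and 263 in OE, and the 79 are 43.9% of the former and 30% of the latter. The 627 genes had median rises of 2.15 in WT and 1.88 in OE, and their median OE minus WT difference under PEG was 0.68. For the 79 that median was 0.03, and for the 13 it was -0.34. These medians follow in part from the baselines that define the sets and were not tested against each other.

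Each limit of the rule cut through a continuous range. The 2 genes just inside and the 2 just outside had highest means of 5.01, 5.04, 4.98 and 4.97 FPKM. For the rise in WT they stood at 1.02, 1.03, 0.996 and 0.996 and for the rise in OE at 1.01, 1.02, 0.997 and 0.981, on log2(FPKM + 1). For the size of the unstressed difference they stood at 0.2995, 0.2979, 0.3031 and 0.3035. With each library left out in turn, 52 of the 79 met the rule every time and 27 failed at least once.

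The rule sets no direct limit on OE against WT under PEG, so this comparison asked whether genes raised from like baselines reached like levels. It is not free of the rule, since the floor of 5 FPKM on the highest group mean can be met in 1 genotype alone. The part of this floor in the calls was not tested. The rule also allows an unstressed difference of under 0.3, which can carry into the difference under PEG. Under PEG, 33 of the 79 were called higher in OE than in WT and 28 lower, by limma on log2(FPKM + 1) at an adjusted p under 0.05, and 18 were not called. The smallest called differences, 0.17 among the higher genes and -0.14 among the lower ones, are within the size allowed without PEG. WT PEG means went down to 2.37 FPKM among the higher genes, and OE PEG means to 1.69 among the lower ones. Genes at such levels met the floor of 5 FPKM only through the other genotype. The called share of 77.2% stands beside 68.3% of all tested genes, so a genotype difference of any size was nearly as common in the table as a whole. By direction the shares were 41.8% higher and 35.4% lower, against 36.1% and 32.2%. The 3 OE PEG libraries and the 3 WT PEG libraries did not overlap for 66 genes, or 83.5%, against 71.7% of tested genes. The median difference of 0.03 equalled the 0.03 of all tested genes, while the median absolute difference was 0.45 against 0.31. With every library rescaled to the same FPKM sum the calls were 26 higher and 35 lower. With a minimum mean of 5 FPKM, which left 51 of the 79 tested, they were 17 higher and 23 lower. The balance of directions thus depended on the scaling and on the filter. Rescaling to the same sum moved the median of all tested genes from 0.03 to -0.07.

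Large differences were mostly deficits in OE. A called difference of at least 2-fold was found for 18 of the 79, or 22.8%, against 9.32% of all tested genes. Of these, 12 were lower in OE, or 15.2% against 3.37%, and 6 were higher, or 7.59% against 5.95%. The other 43 called genes differed by less than 2-fold. The floor on the highest group mean and the limits on the unstressed difference and on both rises enter these shares. All tested genes, by contrast, had only to reach a mean of 1 FPKM over the 12 libraries. The part of the rule in the result was not tested. The 28 lower genes had a median WT PEG level of 31.0 FPKM and OE PEG level of 14.4, with WT rises from 1.3 to 6.41 (median 3.19) and OE rises from 1.02 to 3.53 (median 2.03). The 33 higher genes had medians of 5.78 FPKM in WT PEG and 12.1 in OE PEG, with WT rises from 1.02 to 2.45 (median 1.33) and OE rises from 1.07 to 4.28 (median 2.00). Both groups were split by the difference under PEG, with unstressed levels held close. Which genotype had the higher level and larger rise within each thus largely follows from the split. The WT control medians of these groups were alike, at 1.66 FPKM each. The OE control medians were 1.615 FPKM for the lower genes and 2.014 for the higher genes. Their median OE minus WT differences without PEG were 0.043 and 0.176.

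**Figure D3:**
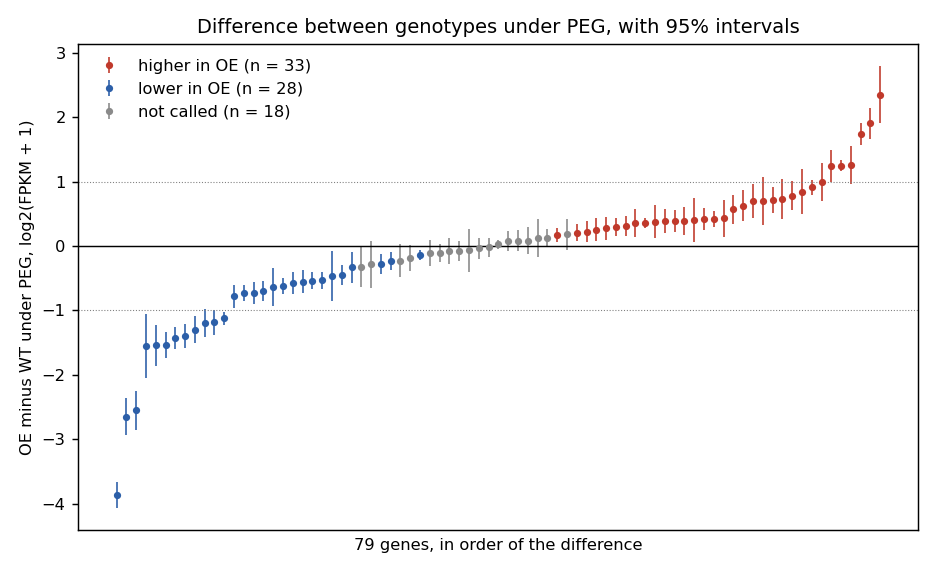
OE minus WT difference under PEG on log2(FPKM + 1) for the 79 genes in rising order, with 95% intervals from the limma fit. Dotted lines mark 2-fold. The lowest genes reach -3.86 and the highest 2.35, and the 18 uncalled genes lie between -0.33 and 0.18.

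The 18 uncalled genes had differences from -0.33 to 0.18, and their 95% intervals reached from -0.65 to 0.42. A difference of 2-fold thus lay outside every one of these intervals, while smaller differences did not. The WT PEG medians were 12.9 FPKM and the OE PEG medians 12.8 among them. Potri.012G131900, singled out after the values were seen for its smallest difference, shows this pattern. It measured 10.1, 11.05 and 10.6 FPKM in WT control and 10.4, 8.11 and 9.80 in OE control. Under PEG it measured 22.3, 23.3 and 23.3 FPKM in WT and 22.7, 23.1 and 21.9 in OE. The PEG groups overlap, with a difference of -0.02 (95% interval -0.17 to 0.13, limma adjusted p = 0.78).

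Potri.016G057600 had the largest rise in WT and the largest deficit in OE. Without PEG it was at 0, 0.222 and 0 FPKM in WT, which is 10 reads in 1 library, and at 0.0817, 0 and 0.0724 in OE, which is 8 reads. Under PEG it reached 91.3, 89.1 and 91.3 FPKM in WT and 6.12, 5.12 and 4.70 in OE. Every WT PEG library lay far above every OE PEG library, which in turn lay far above both control groups. The OE minus WT difference under PEG was -3.86 (SE 0.10, limma adjusted p = 1e-13).

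Potri.016G002900 behaved alike from a slightly higher baseline. It measured 1.12, 1.16 and 0.522 FPKM in WT control and 1.07, 1.24 and 0.712 in OE control, with 4 to 8 reads per library. Under PEG it measured 139, 127 and 129 FPKM in WT and 23.4, 20.2 and 17.4 in OE. The control groups overlap and the PEG groups do not, with a difference of -2.65 (SE 0.13, limma adjusted p = 2.5e-10). Its recovered length is 231 bp, among the short genes of the 79.

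Potri.005G221000 was the opposite case, with the largest rise in OE. It measured 1.12, 0.267 and 0.864 FPKM in WT control and 0.886, 0.284 and 1.57 in OE control, where replicates of 1 group differed more than the groups. Under PEG it measured 6.10, 6.07 and 6.64 FPKM in WT and 37.8, 34.1 and 36.3 in OE. All OE PEG libraries lay above all WT PEG libraries by 2.35 (SE 0.21, limma adjusted p = 1.2e-07).

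Potri.008G205200 had the next largest excess in OE. Its levels were 1.82, 1.38 and 1.76 FPKM in WT control, 1.70, 2.43 and 2.19 in OE control, 3.80, 5.44 and 4.76 in WT PEG and 19.2, 19.5 and 21.4 in OE PEG. The control groups overlap and the PEG groups differ by 1.90 (SE 0.11, limma adjusted p = 1.6e-09). In WT it only just met the rule, with a rise of 1.09, against 2.76 in OE.

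Potri.007G120401 had the next largest rise in OE, 3.53, and a larger one in WT, 4.89. It measured 0.168, 0.267 and 0.0686 FPKM in WT control and 0.176, 0.325 and 0.436 in OE control, with 2 to 14 reads per library. Under PEG it measured 35.5, 31.7 and 33.6 FPKM in WT and 13.7, 14.1 and 14.8 in OE, and the difference was -1.19 (SE 0.09, limma adjusted p = 1.8e-08). All OE PEG libraries stayed below all WT PEG libraries.

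The most abundant of the 79, Potri.010G012100, was singled out after the values were seen. It measured 112, 108 and 108 FPKM in WT control, 98.7, 85.5 and 111 in OE control, 454, 433 and 443 in WT PEG, and 386, 358 and 388 in OE PEG. The control groups overlap, and the WT PEG libraries lie above the OE PEG libraries by a small margin, a difference of -0.23 (SE 0.07, limma adjusted p = 0.0065).

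**Figure D4:**
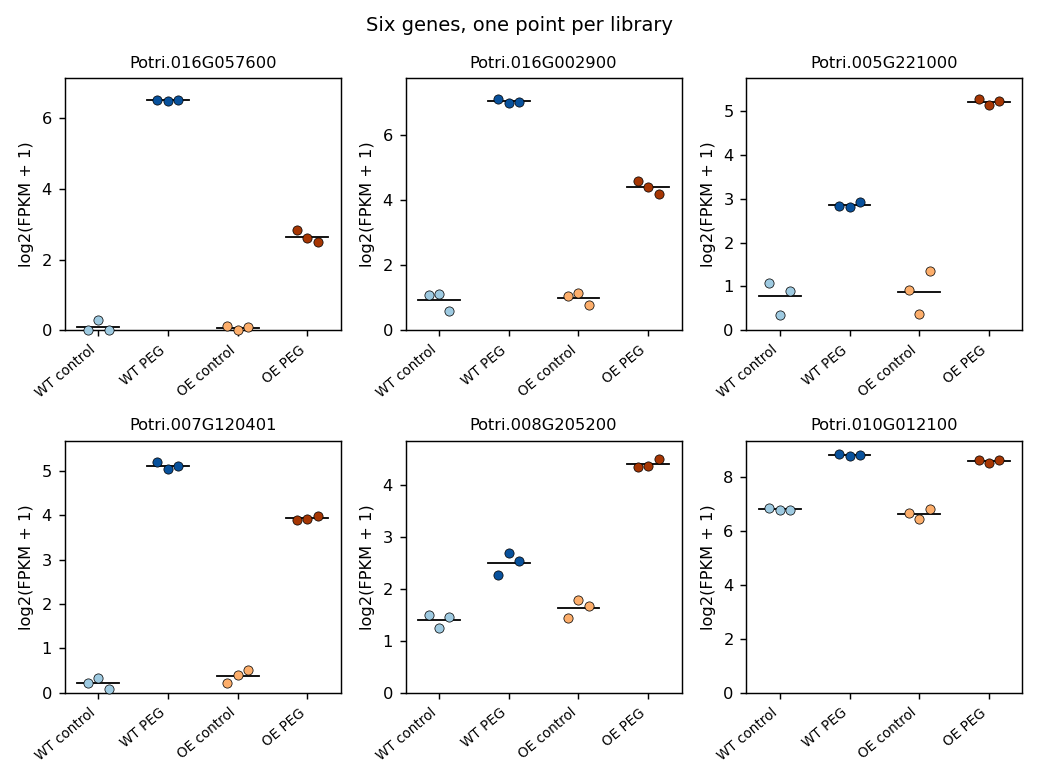
Level of 6 genes as log2(FPKM + 1) in each library, with 1 point per library and a bar at the mean of the 3 libraries of a group. Control groups of both genotypes sit together in each panel. The OE PEG points lie below the WT PEG points for Potri.016G057600, Potri.016G002900, Potri.007G120401 and Potri.010G012100 and above them for Potri.005G221000 and Potri.008G205200.

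The interaction, the rise in OE minus the rise in WT, put the same comparison relative to each genotype's own baseline. It is built from the rises that chose the genes and adds no separate evidence. Limma called it above 0 for 18 of the 79 and below 0 for 28, against 27.8% and 29% of tested genes in each direction, and 33 were not called. At 2-fold the interaction was below 0 for 12 of the 79 (15.2%) and above 0 for 5 (6.33%), against 4.93% and 3.95% of tested genes. With a pseudocount of 0.1 the genes called above 0 numbered 11, and with voom on recovered reads also 11. With a trend by gene length removed, 12 were above 0 and 33 below.

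The 79 genes were shorter than most. Their recovered lengths had a median of 1209 bp and quartiles of 877.5 and 1566 bp, against 1825 bp and quartiles of 1219 and 2813 bp over all tested genes. The 627 genes raised in both genotypes from a higher OE baseline were as short, with a median of 1251 bp. Among the 79, medians were 1183 bp for genes higher in OE under PEG, 1110.5 bp for lower genes and 1359.5 bp for uncalled genes. With a trend by length removed, 28 were called higher and 35 lower in OE under PEG. Whether length has a part in the rises was not tested.

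The genes were spread over the genome, with identifiers from 18 of the 19 chromosome numbers and 1 from an unplaced scaffold. Chromosome number 001 held 11 (13.9%, against 11.8% of tested genes) and 010 held 8 (10.1% against 7.07%). Only 4 sets of neighbours lay within 1000 of each other in identifier number, and all 4 were pairs. They were singled out after the values were seen. Reads of near-identical neighbouring copies could have been split or dropped in counting, so differences within a pair are uncertain.

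Potri.010G085200 and Potri.010G085400 had nearly the same profile. The first measured 3.55, 3.29 and 3.35 FPKM in WT control, 3.19, 3.11 and 3.76 in OE control, 58.0, 56.4 and 56.9 in WT PEG and 41.3, 39.7 and 36.5 in OE PEG. For the other the values were 5.48, 5.83 and 5.42, then 5.86, 6.52 and 4.80, then 59.7, 59.5 and 56.7, and 42.0, 42.6 and 43.8. Both were lower in OE under PEG without overlap, with differences of -0.54 (SE 0.06) and -0.45 (SE 0.07) and limma adjusted p-values of 2.7e-06 and 8.4e-05. Their lengths are 998 and 1023 bp. The identifier between them, Potri.010G085300, went from 0.168 to 4.51 FPKM with PEG in WT and from 0.641 to 8.32 in OE, but its unstressed difference of 0.49 kept it outside the 79.

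Potri.008G031000 and Potri.008G031400 shared low baselines and a deficit in OE. The first stood at 0.383 ± 0.118 and 0.411 ± 0.0443 FPKM in WT and OE control and at 36.2 ± 4.46 and 11.8 ± 0.839 under PEG (SD, n = 3). The other stood at 0.285 ± 0.205 and 0.380 ± 0.0868 FPKM without PEG and at 23.6 ± 4.75 and 3.16 ± 0.425 with it. The differences under PEG were -1.53 (SE 0.09) and -2.55 (SE 0.14), with limma adjusted p-values of 1.7e-09 and 6e-10. The gene numbered between them, Potri.008G031200, went from 22.3 to 13.05 FPKM with PEG in WT and from 16.8 to 13.8 in OE. Its unstressed OE minus WT difference was -0.384.

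The remaining pairs were less alike. Potri.001G391200 stood at 0.223 and 0.450 FPKM in WT and OE control, and Potri.001G391300 at 3.52 and 2.85. Their lengths are 4314 and 1656 bp. Potri.001G391200 reached 17.7 ± 0.974 FPKM in WT PEG and 10.6 ± 0.576 in OE PEG (SD, n = 3), a called difference of -0.70 (SE 0.08, limma adjusted p = 1.1e-06). Its neighbour Potri.001G391300 reached 15.6 ± 0.629 and 16.5 ± 0.709 FPKM, and that difference of 0.08 was not called (95% interval -0.08 to 0.24). Potri.012G104600 and Potri.012G105300 were both higher in OE under PEG, by 0.42 (SE 0.06) and 0.73 (SE 0.15), with limma adjusted p-values of 9.1e-06 and 0.00047. Their levels were far apart, at 42.4 ± 1.85 and 8.40 ± 1.12 FPKM in OE PEG (SD, n = 3), and none of the 4 identifiers between them in the table had a log2 rise of 1 in either genotype.

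**Figure D5:**
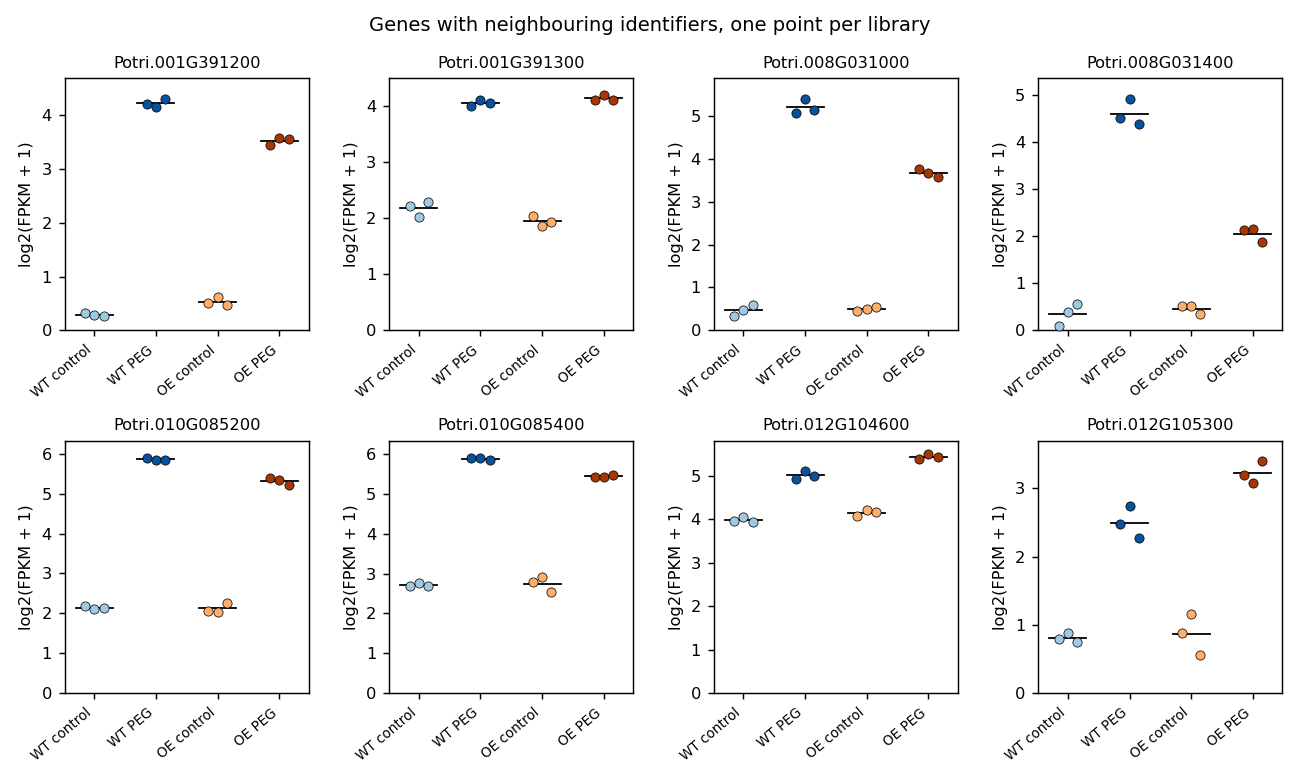
Level of the 8 genes with neighbouring identifiers as log2(FPKM + 1), with 1 point per library and a bar at the group mean. Potri.010G085200 and Potri.010G085400 have almost the same pattern. Potri.001G391200 is lower in OE PEG than in WT PEG, while the PEG points of Potri.001G391300 overlap.

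Replicates agreed closely where these genes were expressed. The median coefficient of variation over the 79 was 5.82% in WT PEG and 5.45% in OE PEG, close to the 6.03% and 5.51% over all tested genes. Without PEG it was 13.4% in WT and 12.8% in OE, against 6.17% and 6.07%, at levels several times lower than those of the typical tested gene.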

How the data were processed

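The authors deposited FPKM to 4 decimals for 34699 identifiers, with 1 column per library. The submitters' processing notes list Bowtie2 2.2.3, HISAT2 2.1.0 and HTSeq 0.6.0 without saying what each did. The build, annotation and strand setting were not given in the sources used. Whole reads, depths and lengths were recovered from the FPKM steps, and the formula returned 100% of values of tested genes within 0.0001 FPKM or 0.001%. Low read numbers were mostly even, so mates may have been counted singly. The test was limma 3.58.1 in R 4.3.3 on log2(FPKM + 1), with a mean-variance trend, all 4 groups in 1 fit, a two-sided moderated test and Benjamini-Hochberg adjustment over all 22640 genes with a mean of at least 1 FPKM. Its differences are means of log values, while the selection rule uses logs of means, and this scale understates changes of weak genes. Steps were checked on simulated data. Genes named by rule were the 2 with the largest rise in each genotype and the 2 highest and 2 lowest called differences under PEG without overlap. The genes and rules were chosen with earlier results of these data known. Alternatives covered pseudocount, filter, scaling, variance trend, libraries in the fit, threshold, replicate block, recovered reads and each library left out, and, chosen after seeing the data, removal of the length trend.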

Additional observations from a re-analysis of the deposited data

Results flagged for a closer look

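By limma's interaction test, 18 of the 79 genes (22.8%) rose more with PEG in OE than in WT and 28 (35.4%) rose less, beside 27.8% and 29% of all tested genes. The genes were chosen for their rises, so these are values from the contrasts that chose them. Among the named genes the rise in OE minus that in WT, on log2(FPKM + 1), was -3.84 for Potri.016G057600 (limma adjusted p = 1.9e-11), -2.71 for Potri.016G002900 (2.4e-08) and -1.35 for Potri.007G120401 (4e-07). It was 2.24 for Potri.005G221000 (limma adjusted p = 1.4e-05) and 1.68 for Potri.008G205200 (6.5e-07). In the neighbouring pairs it was -1.57 for Potri.008G031000, -2.67 for Potri.008G031400, -0.52 for Potri.010G085200, -0.47 for Potri.010G085400, -0.94 for Potri.001G391200, 0.31 for Potri.001G391300, 0.25 for Potri.012G104600 and 0.66 for Potri.012G105300. Their limma adjusted p-values ran from 4.4e-08 for Potri.008G031400 to 0.021 for Potri.001G391300. Potri.001G391300 lost the call under 6 alternatives, among them leaving out OE control replicate 2 (0.27, adjusted p = 0.052), OE PEG replicate 2 (0.28, 0.053) or WT control replicate 3 (0.26, 0.054) in the limma fit. Potri.012G104600 and Potri.012G105300 lost it under 4 each, none of them the loss of 1 library.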

How the results depend on the processing

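Of the alternatives to the calls under PEG, 1 moved a count by over 1.5 times: with a minimum mean of 5 FPKM, which left 51 of the 79 tested, 17 were higher in OE, beside 23 lower. Larger rises in OE numbered 11 with a pseudocount of 0.1, 11 with voom on recovered reads and 9 with that minimum, against 18. The cause was not tested for the first 2. No called gene was called in the opposite direction by any alternative. Leaving out 1 library gave 29 to 33 higher and 26 to 29 lower genes under PEG, and 16 to 19 larger and 24 to 27 smaller rises in OE. The rule itself gave 78 to 89 genes with 1 library left out. With a highest mean of at least 1 FPKM it gave 134 and with 10 FPKM 52, and with baseline limits of 0.15 and 0.5 it gave 36 and 150. A pseudocount of 0.1 in the rule gave 77 genes, 56 of them among the 79, and quantile normalization 87, again sharing 56. Same-numbered replicates did not deviate together (correlations from -0.071 to 0.1), so the numbers were not taken as pairs. With a replicate block the counts were 33 higher, 29 lower, 17 larger and 26 smaller. Depth limits the control values of the 14 genes with under 30 reads in WT control.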
